A study of Homo sapiens with 24 samples.

Results

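The comparison described here set the low-translated pool of untreated MRC5 cells against the untranslated pool of the same cells, and it rests on 6 of the 24 arrays of the series, 3 per pool, which were chosen by their labels for treatment (control) and pool. MRC5 is a line of human lung fibroblasts. In the study each cell lysate was spun through a sucrose gradient, and the 23 fractions collected were joined into an untranslated pool (fractions 1 to 9, which hold free RNPs and also single 80S ribosomes), a low pool (fractions 10 to 14, 2 to 4 ribosomes per transcript) and a high pool (fractions 15 to 23, 5 or more ribosomes). No hydrogen peroxide was given to the cells of these arrays, and all cells received cycloheximide, an inhibitor of translation elongation that holds ribosomes on the mRNA, shortly before harvest. From every pool 100 ng of RNA was copied from an oligo-dT primer, labelled with Cy3 and hybridised to a single-color Agilent array. It holds 17448 catalog probes and 43911 custom probes for 22007 lncRNA transcripts. The catalog probes are called mRNA probes here, but 12104 of them have a coding RefSeq accession and 1161 only a noncoding one. The control high pool and control total RNA, 3 arrays each, entered the estimate of the spread, and the high pool showed which transcripts were highest in the low pool.

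A polysome gradient sorts transcripts by mass, which for most mRNAs is set by the number of ribosomes they carry. The number of ribosomes a transcript can hold grows with the length of its reading frame, so a short mRNA in active translation sediments with few ribosomes and a long one with many. A transcript that sediments at the top of the gradient may be held in a silent particle, may carry a single ribosome or may never meet one. Since the same mass of RNA was labelled from each pool, a value here is the share of a transcript in the polyadenylated RNA of a pool and not the amount in the cell, and in these bulk samples a change in some cells cannot be told apart from a smaller change in all of them.

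The labelled cell type was checked in total RNA. The fibroblast markers COL1A1, COL3A1, COL5A1, LUM, TAGLN and THY1 were well above background on 3 of 3 arrays, between the 83.3 and the 99.8 percentile of mRNA probes. EPCAM, KRT5, SFTPB, CLDN5, KDR and VWF were above background on 0 arrays, and SCGB1A1, SFTPC, CDH5 and PTPRC were above it on 3 arrays at the 47.9 to 55.5 percentile. The untranslated arrays were the dimmer ones. Of the mRNA probes, 43.4 to 50.1% were well above background on them against 59.4 to 65.6% on the low arrays, and of the lncRNA probes 14.5 to 21.8% against 25.6 to 33.4%. Their replicates also varied more, with an SD of the log2 difference between pairs of arrays of 0.716 to 0.846 against 0.308 to 0.394 in the low pool. Replicates 1 and 2 of the untranslated pool share a label number, but they differed from each other by an SD of 0.846, the most of the 3 pairs, and were kept as 2 replicates. Nothing in the labels says that the replicates came from separate cultures beyond an independent RNA preparation, so the p-values measure the spread between these arrays.

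In the low pool more probes were higher than lower, in both categories, although for lncRNAs the balance turned when all probes were normalized together. Testing was limited to probes whose signal exceeded background clearly on all 3 arrays of a pool or more, and a probe was called at a limma adjusted p under 0.05. Of 10211 mRNA probes tested, 4110 (40.3%) were higher and 2322 (22.7%) were lower in the low pool. Only 8307 of them had a coding RefSeq accession. With these alone 3741 were higher and 1528 lower, and their median difference was 0.36. Of 10631 lncRNA probes tested, 4245 (39.9%) were higher and 2079 (19.6%) were lower. The median difference, low minus untranslated on the log2 scale, was 0.27 for mRNA and 0.41 for lncRNA probes, and outside the extremes at either end (the lowest and highest 5% of probes) the values ran from -1.90 to 1.93 for mRNA and from -2.05 to 2.09 for lncRNA. A called difference was over 2-fold for 1878 mRNA probes higher and 1136 lower, and for 2613 lncRNA probes higher and 1300 lower. All 3 low values lay on the same side of all 3 untranslated values for 67.8% of the mRNA probes and 64.1% of the lncRNA probes.

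**Figure D1:**
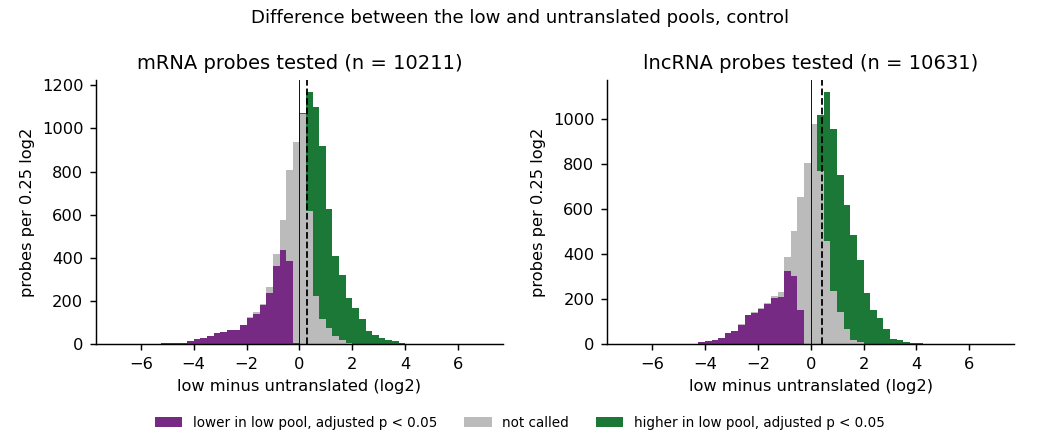
The x axis gives the difference between the low and the untranslated pool (log2, bins of 0.25) and the y axis the number of probes tested, for mRNA (left) and lncRNA (right), with colors for probes called higher or lower and a dashed line at the median. The medians lie at 0.27 and 0.41, and both distributions have a longer tail on the side of the untranslated pool.

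These counts depend on how the arrays were brought to one scale. With all probes quantile-normalized together in place of each category by itself, 5909 mRNA probes were higher and 1387 lower, while 2931 lncRNA probes were higher and 3210 lower. The median difference was then 0.68 for mRNA and 0.04 for lncRNA. Scaling each array to its 75th percentile gave 6788 mRNA probes higher and 924 lower, and 3379 lncRNA probes higher and 2339 lower. With no normalization, where the dimmer untranslated arrays stay dimmer, 9775 mRNA and 9582 lncRNA probes were higher and 51 and 163 lower. The differences below are therefore read against the median of their category as well as against 0. Part of the excess of higher calls lies in dim probes. Among probes well above background on all 6 arrays, 2714 mRNA probes of 7293 were higher and 2064 lower, and 2056 lncRNA probes of 5704 were higher and 1786 lower. A further 1515 mRNA and 2414 lncRNA probes were above background on all low arrays and on 0 untranslated arrays, against 9 and 44 the other way round.

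A direct comparison of both categories, for which all probes were normalized together, used the median log2 signal of lncRNA probes minus that of mRNA probes on each array. On the untranslated arrays the value was -1.47, -1.37 and -1.40 (mean -1.41, SD 0.0516, n = 3). On the low arrays it was -2.15, -2.20 and -2.13 (mean -2.16, SD 0.0363, n = 3). The 2 groups of arrays did not overlap, and lncRNAs stood 0.75 lower against mRNAs in the low pool than in the untranslated pool. The exact two-sided permutation test gave p = 0.1, which is the smallest p that 3 arrays against 3 can give. The untranslated arrays were also the dimmer ones, as given above, and the part of that in the difference was not tested.

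**Figure D2:**
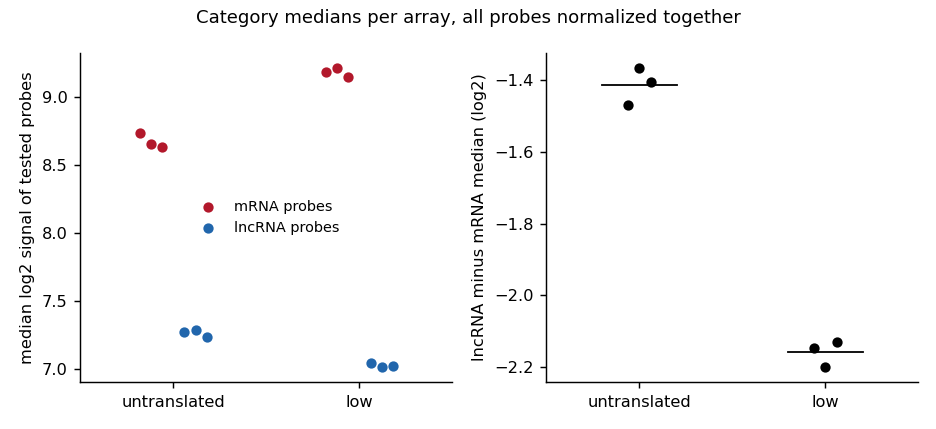
The left panel shows the median log2 signal of the tested mRNA and lncRNA probes on each untranslated and low array (1 point per array), and the right panel the lncRNA median minus the mRNA median, with a bar at the mean of 3 arrays. The 3 low arrays sit between -2.20 and -2.13 and the 3 untranslated arrays between -1.47 and -1.37.

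Of the mRNAs that were higher with few ribosomes, more were at their highest in the high pool than in the low pool. Among the 4110 mRNA probes higher in the low than in the untranslated pool, 1692 were highest in the high pool and 1011 were highest in the low pool, where highest means above each of the other pools with an adjusted p under 0.05. For lncRNAs the order was the other way round, with 1075 highest in the high pool and 1869 highest in the low pool. Over all probes tested in the 3 pools, those highest in the low pool made up 9.64% of 10488 mRNA and 16.9% of 11036 lncRNA probes. Those highest in the untranslated pool made up 18.8% and 13.4%, and those highest in the high pool 28.5% and 15.3%. With all probes normalized together, the lncRNA probes highest in the low pool numbered 1186.

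The mRNAs with the largest rise from the untranslated to the low pool encode proteins of many kinds. Among coding probes well above background on all 6 arrays, the largest was that of MAGEF1, a member of the MAGE family. Its probe (GRCh37 chr3:184428926-184428985) read 7.86, 7.45 and 7.59 log2 units on the untranslated arrays and 10.40, 10.26 and 10.03 on the low arrays. All low values lay above all untranslated values, with a difference of 2.60 (SE 0.13, adjusted p = 3.14e-07). CBX5, the heterochromatin protein HP1 alpha, rose by 2.53 (SE 0.14, adjusted p = 5.05e-07) from 9.57 to 10.02 log2 units on the untranslated arrays to 12.19 to 12.40 on the low arrays. The clathrin adaptor-associated NECAP1 rose by 2.43, the tetraspanin CD9 by 2.28, the secretory GTPase RAB3B by 2.22 and PSD3, an exchange factor of ARF GTPases, by 2.31. PRKAB1, a regulatory subunit of AMP-activated kinase, rose by 2.12, as did the mitotic protein PIMREG and the pore-forming gasdermin GSDME, and INPP1, an inositol phosphatase, rose by 2.06.

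Of these 10 mRNAs, MAGEF1, PSD3, CD9, RAB3B, PIMREG and GSDME were higher still in the high pool. GSDME read 11.67 ± 0.11 (SD, n = 3) there against 9.95 ± 0.38 in the low and 7.83 ± 0.54 in the untranslated pool. For CBX5, NECAP1, PRKAB1 and INPP1 the low and the high pool did not differ at an adjusted p under 0.05. CBX5 was 0.11 higher in the low than in the high pool (adjusted p = 0.523) and PRKAB1 0.16 higher (adjusted p = 0.683).

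The mRNAs that fell most had differences of larger size than those that rose most. CD86, a costimulatory receptor of antigen-presenting cells, read 10.39, 11.28 and 11.39 log2 units on the untranslated arrays and 4.85, 5.71 and 5.44 on the low arrays (GRCh37 chr3:121839246-121839305). The groups lay far apart, and the difference was -5.68 (SE 0.33, adjusted p = 6.53e-07). CIMAP1D, a protein of ciliary microtubules, read 14.01, 14.59 and 14.65 log2 units on the untranslated and 9.31, 9.37 and 9.17 on the low arrays, a difference of -5.13 (SE 0.21, adjusted p = 1.1e-07). Others were YPEL4 at -5.33, the hair keratin-associated KRTAP3-3 at -5.26, the gut hormone precursor GUCA2B at -5.04, MROH7 at -4.87, the phosphatase subunit PPP1R16B at -4.54, the secreted glycoprotein LGALS3BP at -4.20 and choline acetyltransferase CHAT at -4.19.

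All of these mRNAs were highest in the untranslated pool, as were 1951 of the 2322 mRNA probes lower in the low pool. Several of those named are best known from cells other than fibroblasts. LGALS3BP spread from 7.93 to 9.32 on the low arrays, and it was again higher in the high pool, at 10.33 ± 0.25 (SD, n = 3) against 8.71 ± 0.71 in the low pool. CD86 also read more in the high pool (6.74 ± 0.48) than in the low pool (5.33 ± 0.44).

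Some transcripts were higher in the low pool than in both other pools. OAZ1, the antizyme that holds back ornithine decarboxylase and is known for a ribosomal frameshift in its short reading frame, was the brightest of those named. It read 17.40, 17.43 and 17.46 log2 units on the untranslated arrays, 18.86, 18.70 and 18.70 on the low arrays and 17.51, 17.48 and 17.39 on the high arrays. The untranslated and high arrays thus covered the same range, and the low arrays lay above both, by 1.32 (SE 0.09, adjusted p = 1.31e-06) and 1.30 (adjusted p = 7.7e-07), although scaling to the 75th percentile, relative to the shift of all mRNA probes, put OAZ1 at -0.83 against the untranslated pool. PFN1, profilin 1, a small protein that binds actin monomers, gave a like pattern with 13.48, 13.66 and 13.68 on the untranslated and 14.87, 14.71 and 14.94 on the low arrays, a difference of 1.24 (SE 0.15, adjusted p = 7.55e-05), and it was 1.29 higher in the low than in the high pool.

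The other mRNAs of this set were dimmer. IMPA2, an inositol monophosphatase, was 1.54 above the untranslated pool and 1.47 above the high pool. The corresponding values were 1.39 and 1.70 for FAM241A, 1.35 and 1.38 for the ubiquitin ligase RNF185, 1.27 and 1.26 for TMEM64, and 1.23 and 1.45 for the polyphosphate phosphohydrolase NUDT4. CDO1, cysteine dioxygenase, was 1.18 above the untranslated pool (adjusted p = 0.0257), but its untranslated values ran from 6.74 to 8.71 log2 units. Without untranslated replicate 3 its difference was 0.65 and it was no longer called, nor was it with any of the 3 low arrays left out (1.12 to 1.25).

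**Figure D3:**
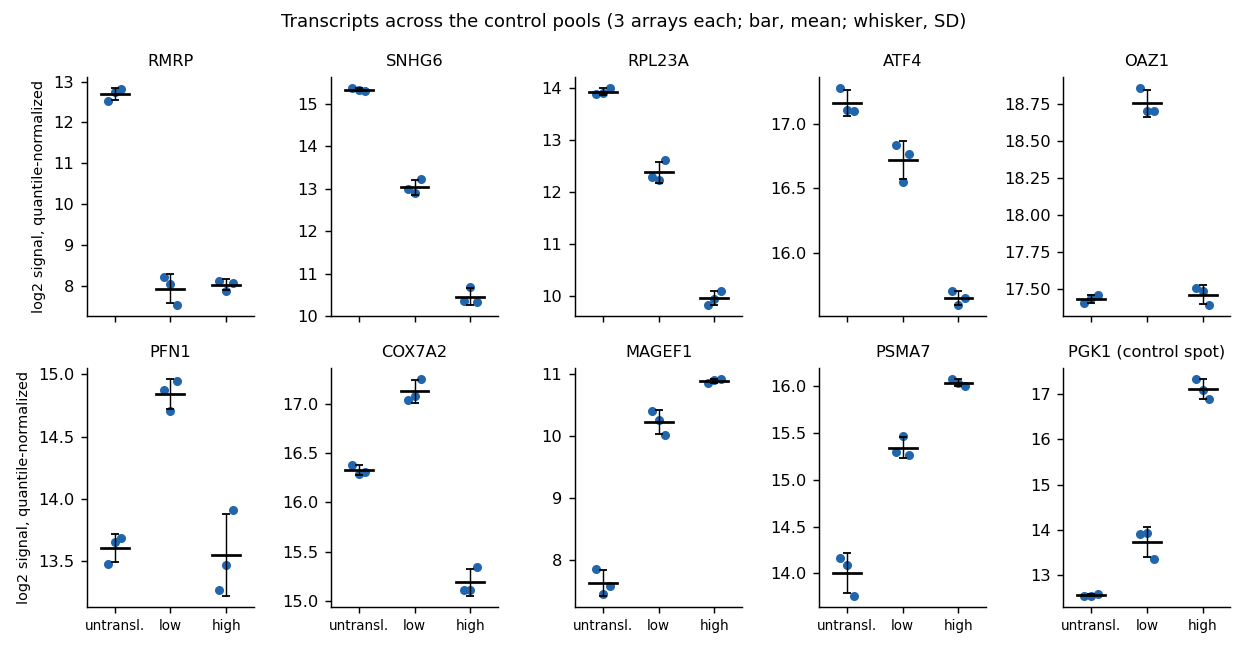
Each panel shows the log2 quantile-normalized signal (y axis) of a transcript on the 3 untranslated, 3 low and 3 high control arrays, with a bar at the mean and whiskers for the SD, and the y axes differ between panels and do not start at 0. RMRP, SNHG6, RPL23A and ATF4 are highest in the untranslated pool, OAZ1, PFN1 and COX7A2 in the low pool, and MAGEF1, PSMA7 and the PGK1 control spot in the high pool.

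The array also carries control spots for GAPDH and PGK1, housekeeping mRNAs of glycolysis, which were in no test. GAPDH was 1.09 higher in the low than in the untranslated pool on the probe at its 3' end and 0.53 higher on the probe at its 5' end. PGK1 was 1.17 and 1.42 higher. On all of these spots the 3 low values lay above the 3 untranslated values, and the high pool lay above the low pool (low minus high, GAPDH -1.21 and -2.41, PGK1 -3.37 and -2.88).

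How far an mRNA moved into the low pool went with where its probe lies, which stands in here for length. No table of transcript or protein length was used, but each catalog probe has a start position in its target transcript, and a transcript is at least as long as that position. A probe near the start does not by itself make a transcript short. Of 253 probes for coding mRNAs that start within the first 300 bases, 23.3% were called higher and 36.0% lower in the low pool, with a median of -0.18. Of those that start between base 300 and base 500, 30.8% were higher and 32.7% lower, with a median of -0.01. Between base 500 and base 1000 the median was 0.32 and the shares were 42.0% and 20.5%. Of 1480 probes that start beyond base 4000, 59.3% were higher and 9.73% lower, with a median of 0.65.

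Against the high pool the order ran the opposite way. The median of low minus high fell from 1.01 in the first of these bins and 1.00 in the second to -0.67 beyond base 4000. The share of probes highest in the low pool was 12.6% in the first bin, 19.7% in the second and 5.0% beyond base 4000. The mean level over the 6 arrays fell along the same bins, from 10.8 in the second to 8.78 log2 units in the last, and the difference itself also depended on the level. Over 4 equal groups of mRNA probes from the dimmest to the brightest the median difference went from 0.73 through 0.25 and 0.18 to 0.14, and without normalization, relative to the shift of all probes, from -0.28 through -0.02 and 0.19 to 0.04. The part of the signal level in the order by position was not tested.

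**Figure D4:**
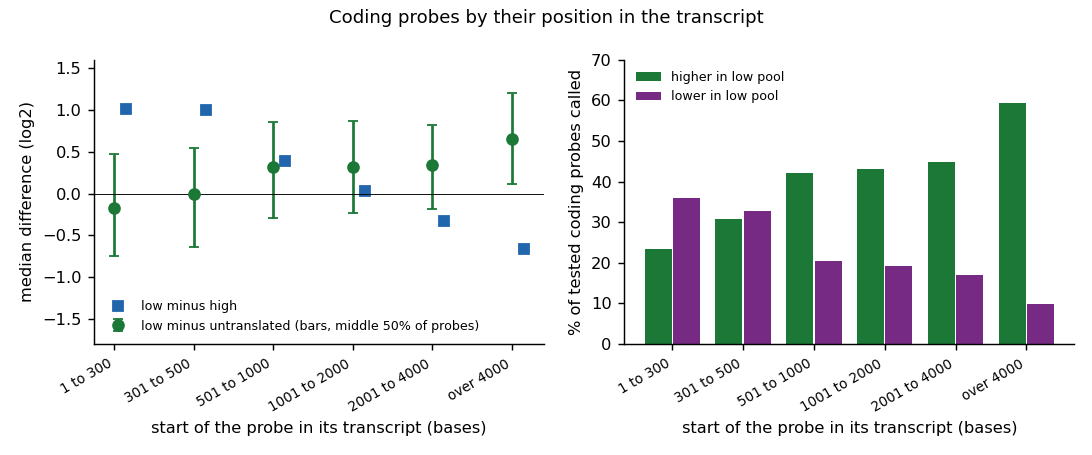
Tested probes of coding mRNAs are grouped on the x axis by where the probe starts in its transcript (bases), with the median low minus untranslated difference (circles, bars for the middle 50% of probes) and the median low minus high difference (squares) in log2 on the left and the percentage of probes called higher or lower on the right. The circles go from -0.18 to 0.65 and the squares from 1.01 to -0.67 as the position moves from the first 300 bases to beyond base 4000.

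Gene lists were described by their counts and medians, with 1 probe per gene, the one with the highest mean level. The medians are on the log2 scale, low minus untranslated. The median of all tested mRNA probes was 0.27, and that of the probes with a coding RefSeq accession was 0.36. With all probes normalized together 5909 of the 10211 mRNA probes were higher and 1387 lower, and with scaling to the 75th percentile 6788 and 924. The splits of lists under these scalings are to be read against these counts and not against 40.3% and 22.7%. Whether the median of a list lay above or below that of all mRNA probes was the same for all lists with joint quantile normalization, after normexp, in the deposited table and with scaling to the 75th percentile, but the split into higher and lower calls was not. The distance between the medians was not the same either. With scaling to the 75th percentile the respiratory chain median was 1.09 and the ZNF zinc finger median 1.11, against 1.08 for all mRNA probes. Another probe of the gene was called in the other direction, or was called where the probe used was not, for 2 members each of the respiratory chain, collagen and other TOP lists. Other probes that were not called were left out of this count. The same held for 1 member each of the Sm and LSm, very long protein, upstream reading frame and immediate early lists.

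Cytosolic ribosomal proteins are short, are made in large amounts and belong to the TOP mRNAs, whose translation is governed through a run of pyrimidines that begins at the cap. Of 52 on the array 51 were tested, with a median of -0.14. In the low pool 10 were higher and 21 lower, against 40.3% and 22.7% of all mRNA probes. With all probes normalized together the split was 17 and 10, and with scaling to the 75th percentile 2 and 39. By RefSeq (GRCh38.p14), a C followed by 5 or more C or T within 5 bases of the annotated start was present in 32 of the 41 ribosomal protein genes matched to a promoter (78.0%), against 12% of 5869 tested coding genes and 11% of all 27305 promoters of the table, read on the strand of the gene only. Stretches of 30 bases from the annotated start, or from the start of the run where that begins upstream (by 1 base in RPS12 and by 5 in RPL7A), are shown for the low and the high end of the ribosomal proteins with a run and for EEF1A1, with the run in capitals, and for a pair of respiratory chain genes without one.
RPS12: CCTCTTTCCCTgccgccgccgagtcgcgcg
RPLP1: CCCCTTTCCTCagctgccgccaaggtgctc
RPL7A: CTTTCCTTTCTCTCTCCTCCCgccgcccaa
RPL10A: agtCTCTTTTCCggttagcgcggcgtgaga
EEF1A1: CTTTTTCgcaacgggtttgccgccagaaca
NDUFA12: ggggccagcgaggcaagatggagttagtgc
COX5B: agttttgctgctagtcgcggacgcaatggc
These stretches lie at chr6:132814568-132814597 (RPS12, plus strand), chr15:69452818-69452847 (RPLP1, plus), chr9:133348213-133348242 (RPL7A, plus), chr6:35468401-35468430 (RPL10A, plus), chr6:73521003-73521032 (EEF1A1, minus), chr12:95003668-95003697 (NDUFA12, minus) and chr2:97646062-97646091 (COX5B, plus).

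RPS12, of the small subunit, was 17.50, 17.58 and 17.51 log2 units on the untranslated arrays and 16.13, 16.36 and 16.18 on the low arrays, a fall without overlap of the groups (difference -1.30, SE 0.10, adjusted p = 3.46e-06). RPL23A had the lowest difference of the list at -1.54 (SE 0.12, adjusted p = 3.06e-06), with 13.88 to 13.99 in the untranslated, 12.23 to 12.61 in the low and 9.83 to 10.11 in the high pool. RPLP1, of the ribosomal stalk, stood at -0.95 and RPS29 at -0.83. At the other end were RPL10A (17.53 to 17.54 in the untranslated and 18.14 to 18.25 in the low pool, difference 0.64, SE 0.08) and RPL7A (difference 0.62, SE 0.08), both of the large subunit. The median was -0.27 over the 32 genes with a run and 0.17 over the other matched genes. Over all tested coding genes it was 0.31 with and 0.37 without a run. Ribosomal protein genes have many processed pseudogenes, so a probe may also read copies, and 5 members had another called probe that differed from the probe used here. For RPL5 and RPS21 it was called in the other direction. For RPL7, RPL23 and RPS10 it was called while the probe used here was not.

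Of 12 other TOP mRNAs of the translation machinery tested (13 on the array), 2 were higher and 4 lower, against 40.3% and 22.7% of all mRNA probes. The median was -0.17, and the split became 5 and 3 with all probes normalized together and 3 and 4 with scaling to the 75th percentile. A run as above was present in 6 of 8 matched to a promoter, with a median of -0.12 for those with a run and -0.83 for those without. The initiation factor EIF4B had the lowest difference, -1.38 (SE 0.12), and the nucleolar chaperone NPM1 the highest, 1.10 (SE 0.12), followed by the elongation factor subunit EEF1D at 0.28. The 3 probes of the elongation factor EEF1A1 disagreed. The brightest read 18.21 to 18.44 log2 units in the untranslated and 18.26 to 18.48 in the low pool (difference 0.00, adjusted p = 0.978), and the others gave -0.44 (adjusted p = 0.0204) and -0.75 (adjusted p = 8.07e-05). With all probes normalized together, the first of these was no longer called, at -0.08, and with scaling to the 75th percentile the brightest stood at -2.10 relative to the shift of all mRNA probes.

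Subunits of the respiratory chain and of the mitochondrial ribosome that are encoded in the nucleus are mostly small proteins made on cytosolic ribosomes. Of 45 respiratory chain subunits tested (46 on the array), 26 were higher and 4 lower, with a median of 0.52, and 19 were highest in the low pool. Over all mRNA probes these shares were 40.3%, 22.7% and 9.64%. With all probes normalized together 35 were higher and 3 lower. With scaling to the 75th percentile 27 were higher and 1 lower, with a median of 1.09. The 10211 mRNA probes then gave 6788 higher and 924 lower, with a median of 1.08, so the higher calls were not in excess there. COX7A2, of cytochrome c oxidase, read 16.38, 16.29 and 16.31 log2 units on the untranslated and 17.04, 17.08 and 17.25 on the low arrays, without overlap (difference 0.80, SE 0.10, adjusted p = 8.53e-05), and was 1.94 higher in the low than in the high pool. COX5B and NDUFA12, whose starts are shown above, were 0.91 and 0.81 higher than in the untranslated pool and 1.19 and 0.30 higher than in the high pool. UQCRH rose by 0.49, cytochrome c (CYCS) by 0.68 and NDUFV2 of complex I by 1.07, the last being higher still in the high pool. ATP5MF had the lowest difference, -0.96 (SE 0.12), with ATP5MGL at -0.72, SDHA at -0.54 and ATP5MJ at -0.32 as the other members that fell.

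Of 38 genes tested that are listed as mitochondrial ribosomal proteins by symbol or array name (40 on the array), 24 were higher and 4 lower, with a median of 0.48. Of the 38, 12 were highest in the low pool, against 40.3% of all mRNA probes higher, 22.7% lower and 9.64% highest in the low pool. Among them is KGD4, listed by its array name MRPS36 only, which was 0.46 higher and was highest in the low pool. MRPL41 read 15.35, 15.41 and 15.28 log2 units on the untranslated and 16.07, 16.12 and 16.33 on the low arrays, without overlap (difference 0.83, SE 0.14). MRPL18 rose by 0.78 and MRPL32 by 0.83, and both were highest in the low pool. MRPL19 had the highest difference, 2.61, but was above background on 1 of 3 untranslated arrays. The members that fell were MRPL45 (-0.87), MRPL42 (-0.75), MRPS17 (-0.50) and MRPS33 (-0.33). Of the 37 matched to a promoter, 2 (5.41%) had the pyrimidine run. The total RNA array of replicate 1 read over 3 log2 units below both other total RNA arrays for 378 tested probes, and it is part of the estimate of the spread. For the respiratory chain members NDUFB5 and SDHD this array read 3.34 and 3.46 log2 units against 10.5 to 11.3 on the others, and their differences of 1.13 and 0.82 had adjusted p = 0.547 and 0.687, against 2.37e-04 and 0.00188 with the total RNA arrays left out.

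**Figure D5:**
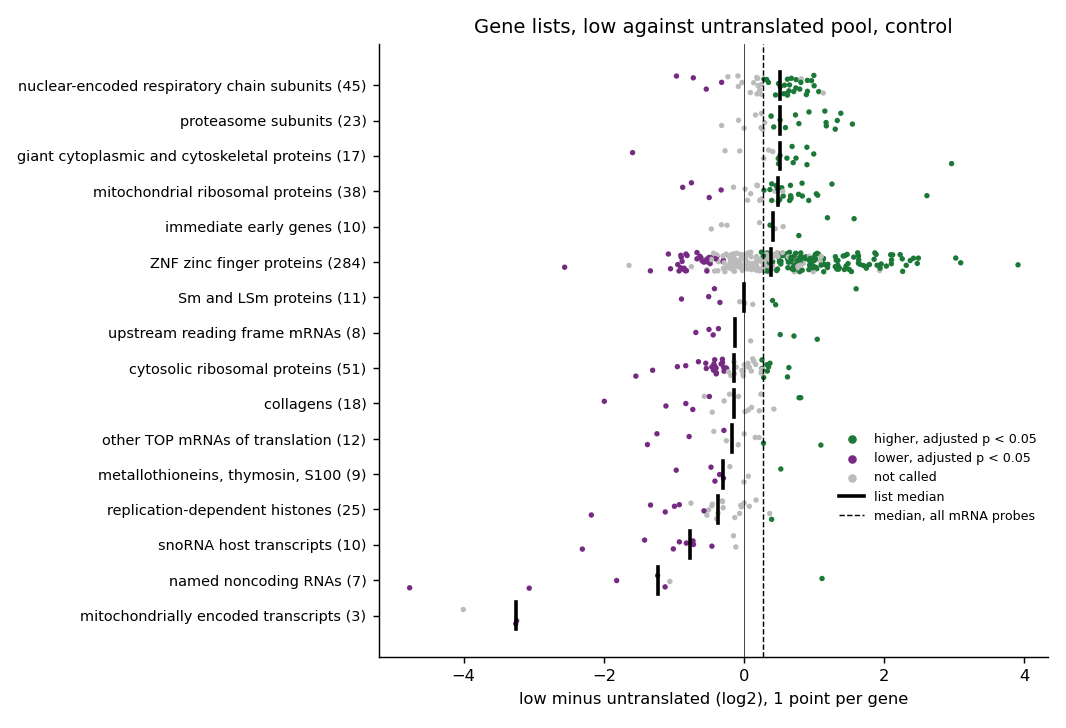
Each point is a gene of a list (y axis, number tested in brackets) at its low minus untranslated difference on the log2 scale (x axis), colored by call, with a thick bar at the list median and a dashed line at the median of all tested mRNA probes, 0.27. Respiratory chain, proteasome, giant protein and mitochondrial ribosome lists have medians between 0.48 and 0.52, and the snoRNA host, named noncoding and mitochondrially encoded lists lie at -0.77, -1.23 and -3.26.

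The proteasome, the protease complex that degrades ubiquitinated proteins, gave 14 higher and 0 lower of 23 tested (25 on the array), with a median of 0.52, and 17 were highest in the high pool, against 40.3%, 22.7% and 28.5% of all mRNA probes. At an unadjusted limma p under 0.05 18 were higher and 0 lower. The core subunit PSMA7 read 14.16, 14.09 and 13.76 log2 units on the untranslated and 15.29, 15.47 and 15.26 on the low arrays (difference 1.33, SE 0.12, adjusted p = 7.85e-06), and a mean of 16.03 on the high arrays, so that the 3 pools formed separate steps. The regulatory subunit PSMD8 rose by 1.30 and the inhibitor PSMF1 by 1.38. The activator PSME3 had the highest difference, 1.55 (SE 0.12), and was highest in the low pool. PSMD10 had the lowest, -0.32 (adjusted p = 0.454).

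Genes of very long proteins were also mostly higher. Of 17 tested (20 on the array), 11 were higher and 1 lower, against 40.3% and 22.7% of all mRNA probes, with a median of 0.52. Over the 13 above background on all 6 arrays, 8 were higher and 1 lower, and the median was 0.49. Of all mRNA probes above background there, 2714 of 7293 were higher and 2064 lower. The ubiquitin ligase UBR4 rose from 12.29 to 12.32 on the untranslated arrays to 12.82 to 13.01 on the low arrays, a difference of 0.61 (SE 0.12, adjusted p = 0.00144), and the ubiquitin ligase HUWE1 rose by 0.74. VPS13C and the focal adhesion protein TLN1 were not well above background on any untranslated array and were at least 1.09-fold and at least 1.39-fold higher in the low pool, set against the lowest signal that was above background. SYNE1, of the nuclear envelope, stood at -1.59 (SE 0.15), while another of its probes was called in the other direction.

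Collagens, which fibroblasts secrete, gave 2 higher and 5 lower of 18 tested (29 on the array), against 40.3% and 22.7% of all mRNA probes. Their median was -0.14, and with all probes normalized together 5 were higher and 3 lower, and with scaling to the 75th percentile 9 higher and 1 lower. Of the 10211 mRNA probes, 5909 were higher and 1387 lower in the first of these scalings, and 6788 and 924 in the second. COL1A1, the most abundant of them, read 15.29, 15.16 and 15.19 log2 units on the untranslated and 15.34, 15.41 and 15.22 on the low arrays, which overlapped (difference 0.11, SE 0.12, adjusted p = 0.448), and 16.97 to 17.39 on the high arrays. Its difference was called at 0.46 with all probes normalized together, and it was -0.32, relative to the shift of all mRNA probes, with scaling to the 75th percentile. COL8A1 had the highest difference, 0.81 (SE 0.17), and COL10A1, above background on 2 of 3 untranslated arrays, the lowest, -1.99 (SE 0.45).

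The KRAB-type and other ZNF zinc finger proteins, most of which are low-abundance repressors of transcription, formed the largest list. Of 284 tested (320 on the array), 126 were higher and 34 lower, against 40.3% and 22.7% of all mRNA probes, with a median of 0.39. Over the 181 above background on all 6 arrays, 64 were higher and 31 lower, and the median was 0.13. Of all mRNA probes above background there, 2714 of 7293 were higher and 2064 lower, with a median of 0.13 as well. For 11 members another probe was called in the other direction, or was called where the probe used was not. ZNF827 was not above background on any untranslated array and was at least 1.58-fold higher in the low pool. ZNF713 had the lowest difference, -2.56 (SE 0.13), with 14.07 to 14.51 log2 units in the untranslated and 11.66 to 11.84 in the low pool.

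The Sm and LSm proteins, small subunits of splicing and decay complexes, gave 3 higher and 4 lower of 11 tested, against 40.3% and 22.7% of all mRNA probes. They ran from LSM3 at -0.89 to SNRPB, which rose 3.04-fold, with a median of 0.00. The split became 5 higher and 0 lower with all probes normalized together and 6 and 0 with scaling to the 75th percentile. Of 9 metallothioneins, thymosins and S100 proteins tested (10 on the array), 1 was higher and 5 lower, against the same shares of all mRNA probes, with a median of -0.29. The 5 that fell were the metallothioneins MT1X (-0.97), MT1E (-0.47), MT1A (-0.41), MT1B (-0.35) and MT1H (-0.29), very small metal-binding proteins with near-identical sequences whose probes may share signal, and S100A3 rose by 0.53. The split became 3 higher and 1 lower with all probes normalized together and 2 and 5 with scaling to the 75th percentile.

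Among mRNAs held back by known elements of their leader, 8 with regulatory upstream reading frames were tested. Of these 3 were higher and 4 lower, against 40.3% and 22.7% of all mRNA probes, with a median of -0.13. The split became 4 higher and 1 lower with all probes normalized together and 6 higher and 1 lower with scaling to the 75th percentile. ATF4, the transcription factor of the integrated stress response, read 17.27, 17.10 and 17.10 log2 units on the untranslated, 16.83, 16.55 and 16.77 on the low and 15.60 to 15.71 on the high arrays. The groups did not overlap, and the difference was -0.44 (SE 0.11, adjusted p = 0.00604), but it was -0.19 and not called with all probes normalized together. SLC35A4 stood at -0.69, the lowest of the list, MDM2 at -0.50, with another probe called in the other direction, and SAT1 at -0.36. AMD1 rose by 0.52, PPP1R15B by 0.71 and UCP2 by 1.05. The iron-responsive element list had a single member on the array, the ferritin heavy chain FTH1, with 3 probes. The brightest gave -0.31 (adjusted p = 0.0371), and the others -0.17 (adjusted p = 0.26) and -1.23 (adjusted p = 2.13e-05). With all probes normalized together, the brightest was at -0.09 and not called.

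The immediate early genes, whose short-lived mRNAs encode mainly transcription factors, gave 4 higher and 0 lower of 10 tested (11 on the array), against 40.3% and 22.7% of all mRNA probes, with a median of 0.41. JUNB read 7.70 ± 0.29 log2 units (SD, n = 3) in the untranslated pool and 9.68, 9.28 and 8.87 on the low arrays, above all untranslated values (difference 1.57, SE 0.21, adjusted p = 1.32e-04). IER2 rose by 1.19, JUND by 0.78 and BTG2 by 0.37, while EGR1 had the lowest value, -0.47, and was not called. At an unadjusted limma p under 0.05, these counts were the same, 4 and 0.

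The replication-dependent histones end in a stem-loop in place of a poly(A) tail and so are copied poorly from an oligo-dT primer. Of 25 tested (28 on the array), 1 was higher and 6 lower, against 40.3% and 22.7% of all mRNA probes, with a median of -0.37. H2BC11 had the lowest difference, -2.18 (SE 0.19), with 12.93 to 13.44 log2 units in the untranslated and 10.88 to 11.22 in the low pool, and H3C1 the highest, 0.40 (SE 0.12). With all probes normalized together 4 were higher and 4 lower, and with scaling to the 75th percentile 4 and 1.

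Most noncoding transcripts of long standing made up a smaller share of the low than of the untranslated pool. They were read by catalog probes and were normalized with the mRNAs. Of 7 tested (10 on the array), 1 was higher and 5 lower, against 40.3% and 22.7% of all mRNA probes, with a median of -1.23. With scaling to the 75th percentile 1 was higher and 3 lower, with a median of -0.46. RMRP, the RNA of the endonuclease RNase MRP, which acts in the nucleolus, read 12.53, 12.75 and 12.81 log2 units on the untranslated arrays and 8.21, 8.05 and 7.52 on the low arrays (GRCh37 chr9:35657939-35657998). The difference was -4.77 (SE 0.17, adjusted p = 6.27e-08), and the low and the high pool did not differ (difference -0.10, adjusted p = 0.648). OIP5-AS1, a cytoplasmic lncRNA, stood at -3.07 (SE 0.13), CRNDE at -1.82, NORAD, which binds Pumilio proteins, at -1.23 and MEG3 at -1.13.

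The exception among the called ones was TUG1. It read 12.90, 12.79 and 12.80 log2 units on the untranslated and 13.85, 14.01 and 13.98 on the low arrays, a rise of 1.12 (SE 0.09, adjusted p = 4.82e-06), and it was 0.38 higher in the low than in the high pool (adjusted p = 0.00514). MALAT1, a nuclear lncRNA, was above background on 1 of 3 untranslated and 3 of 3 low arrays, and its difference of -1.06 was not called (SE 0.71, adjusted p = 0.22).

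The hosts of small nucleolar RNAs, spliced noncoding transcripts that carry snoRNAs in their introns, gave 0 higher and 8 lower of 10 tested (12 on the array). The shares over all mRNA probes were 40.3% and 22.7%, and the median of the list was -0.77. SNHG6 had the lowest difference, with 15.38, 15.33 and 15.31 log2 units on the untranslated, 12.98, 12.89 and 13.22 on the low and 10.32 to 10.68 on the high arrays (difference -2.31, SE 0.12, adjusted p = 4.17e-07). The 3 pools formed separate steps down the gradient. GAS5 fell in the same way, from 16.94 to 17.07 in the untranslated to 15.98 to 16.05 in the low pool (difference -1.01, SE 0.11) and 13.54 to 13.89 in the high pool. SNHG10 (-1.42), SNHG3 (-0.92), SNHG1 (-0.82), SNHG9 (-0.73), ZFAS1 (-0.72) and SNHG15 (-0.46) were also lower, and SNHG7 (-0.15, adjusted p = 0.266) and SNHG12 (-0.12, adjusted p = 0.382) were not called. All 10 had a negative difference, 0 were higher at an unadjusted limma p under 0.05, and 6 were lower and 0 higher with all probes normalized together, whereas scaling to the 75th percentile gave 3 higher and 3 lower.

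The transcripts of the mitochondrial genome, which are translated inside the organelle, were far lower in the low pool, with a median of -3.26. Of 3 tested, 0 were higher and 2 lower, against 40.3% and 22.7% of all mRNA probes. ND4L read 17.08, 17.34 and 17.31 log2 units on the untranslated and 13.79, 14.41 and 13.78 on the low arrays (difference -3.24, SE 0.19, adjusted p = 6.53e-07), and ND5 fell by 3.26 (SE 0.20). ATP8 stood at -4.01 with untranslated values of 14.35 to 14.97 and low values of 10.41 to 10.86, which did not overlap. Its adjusted p was 0.175, and 8.45e-06 with the total RNA arrays left out, of which that of replicate 1 read 3.66 against 15.0 and 15.1.

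Among the custom lncRNAs, 4452 transcripts had 2 probes tested. For 1381 both were called alike, 798 higher and 583 lower, and for 28 they were called in opposite directions. Both probes of a transcript often overlap in sequence, as they did by 40 to 59 bases for 8 of the 10 transcripts named next, so they are not independent readings. The largest rise in both probes was that of ENST00000598112.1, with 7.56 to 8.15 log2 units on the untranslated and 11.15 to 11.51 on the low arrays for its first probe (difference 3.44, SE 0.16, adjusted p = 1.73e-07) and a difference of 3.54 for its second. It did not differ between the low and the high pool at an adjusted p under 0.05. ENST00000560295.1 rose by 3.05 and 3.27 and ENST00000569087.1 by 2.97 and 2.98. ENST00000562232.1 rose by 2.95 and 3.04 and ENST00000578927.1 by 2.88 and 2.70. These 4 were highest in the high pool, with ENST00000560295.1 at 13.65 ± 0.07 (SD, n = 3) there against 11.57 ± 0.16 in the low and 8.52 ± 0.27 in the untranslated pool.

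The lncRNAs with the largest fall were ENST00000450016.1 and ENST00000443162.1, whose probes overlap by 57 to 59 bases and so read the same sequence. A probe of ENST00000450016.1 gave 12.54, 12.85 and 13.04 log2 units on the untranslated and 6.81, 7.29 and 6.63 on the low arrays, a difference of -5.90 (SE 0.19, adjusted p = 5.08e-08), and 6.79 to 7.13 on the high arrays. The low and the high pool thus covered nearly the same range, far below the untranslated pool. The other 3 of these probes gave -5.69, -5.77 and -5.72. ENST00000449551.1 stood at -4.26 and -4.47, ENST00000436360.1 at -4.12 and -4.05 and ENST00000474477.1 at -4.12 and -3.98. Of these, ENST00000449551.1 was again higher in the high pool than in the low pool (8.06 ± 0.41 against 6.14 ± 0.26 log2 units for its first probe, SD, n = 3).

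Of the lncRNA probes highest in the low pool and above background on all 9 pool arrays, ranked by the smaller of their 2 differences, the first was that of ENST00000442293.1. It read 15.72, 15.80 and 15.70 log2 units on the untranslated, 17.35, 17.28 and 17.28 on the low and 15.61, 15.57 and 15.47 on the high arrays. The low arrays lay above both other pools, by 1.56 (SE 0.09, adjusted p = 4.95e-07) and 1.75 (adjusted p = 1.38e-07). ENST00000433198.2 (1.47 and 1.93) and ENST00000308604.5 (1.47 and 1.86) gave nearly the same pattern, and their probes share 50 to 57 bases with those of ENST00000442293.1 and with each other, so the 3 identifiers count as 1 reading. ENST00000588658.1 was 1.54 above the untranslated and 1.72 above the high pool, and ENST00000532697.1 1.47 and 1.48. Positions of the lncRNA probes were not analysed here.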

How the data were processed

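RNA from control MRC5 pools was read on single-color arrays. The authors deposited Feature Extraction output, in which the processed signal is an intensity per spot with background subtracted, and a table of log2 values per probe, used here as an alternative. Per the labels, the authors worked in Partek. The array design is on GRCh37. Control spots and 178 probes with an outlier mark were left out. The 12 control arrays were taken to log2 and quantile-normalized, lncRNA and mRNA probes separately. Using limma 3.58.1 (lmFit and eBayes; R 4.3.3), a linear model was fitted to the 4 control groups, and p-values were adjusted by Benjamini-Hochberg across both categories. Tested probes were those that Feature Extraction marked well above background on all arrays of at least 1 pool compared. The number of arrays limits the precision. Figures and sequences used Python 3.11.15, pandas 2.3.3 and matplotlib 3.10.9.

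Named were the 10 mRNA probes (coding, above background on all 6 arrays, groups separated) with the largest difference in each direction, 5 lncRNA transcripts in each direction with both probes called alike, the 8 mRNA and 5 lncRNA probes most raised in the low pool over both others, the extremes of each list, and 6 fixed names (ATF4, FTH1, EEF1A1, MALAT1, COL1A1 and GAS5). Of these, 1 mRNA probe is not reported here. Other list members were named after their values were seen. The members, lists and tests were chosen with earlier results of these data known, so they are not independent evidence. Gene symbols were updated by RefSeq accession.

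The fits and the category statistic were tried on simulated data of 20842 probes, with the background marks of the real arrays. Apart from the changed probes all pools had equal means there, whereas most probes tested in the real data were called. The simulation therefore cannot give the rate of false calls in this comparison. For low against untranslated, 53% of 100 probes changed by 1 and 81% of 100 changed by 2 (log2) were recovered with 4 false calls. For highest in the low pool 67% of 100 were recovered with 0 false calls. A shift of 0.5 between the categories was recovered as 0.516, on values that were not normalized. Alternatives were other scalings, filters, blocks, arrays in the fit, probe means and leaving out each array in turn. The 12 OS arrays entered only as alternatives. A planned test of short against long proteins was not run, since no protein table was used here.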

Additional observations from a re-analysis of the deposited data

How the results depend on the processing

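Scaling moved the counts most. With all probes quantile-normalized together, mRNA probes lower numbered 1387, lncRNA probes lower 3210 and lncRNA probes highest in the low pool 1186. The same counts were 1409, 3186 and 1223 after normexp, and 1382, 3201 and 1159 in the deposited table. Scaling to the 75th percentile gave 6788 mRNA probes higher and 924 lower. With no normalization 9775 mRNA and 9582 lncRNA probes were higher, 51 and 163 lower, and 4856 and 7109 highest in the low pool. With scaling on spike-in probes these were 9996 and 10050, 28 and 51, and 5984 and 8346. The median difference of mRNA and lncRNA probes was 0.27 and 0.41 as reported, 0.68 and 0.04 when normalized together, 1.08 and 0.19 at the 75th percentile, 3.38 and 2.49 with no normalization and 4.06 and 3.17 on spike-in probes. Relative to that shift, OAZ1 stood at -0.83, the brightest EEF1A1 probe at -2.10 and COL1A1 at -0.32 under each of the last 3 scalings, which differ by 1 constant per array and so give the same value. The cause was not tested.

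With all 24 arrays in the fit, lncRNA probes higher were 2703 and highest in the low pool 796. Only probes above background on all arrays compared gave 2101 lncRNA probes higher and 1191 highest in the low pool. Means over the probes of a transcript gave 2444 lncRNAs higher, 1192 lower and 1133 highest in the low pool, and fewer features enter both of these. Coding accessions alone gave 1528 mRNA probes lower. Normalizing the categories separately, which removes most of what is compared, turned their difference from -0.75 to 0.0618, and other settings kept it between -1.05 and -0.51.

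Replicate numbers were shared between the pools, but same-numbered arrays showed little shared deviation from their group means, with correlations of -0.234, -0.032 and 0.0156. With so few arrays this does not show that they came from separate gradients. Low and untranslated arrays on the same slide gave 0.255, 0.199 and -0.027. With the replicate block, mRNA probes higher and lower were 4093 and 2285, lncRNA probes 4210 and 2064, and highest in the low pool 991 and 1841, and the category difference stayed at -0.75. The slide block gave 4154 and 2370, 4429 and 2214, and 1047 and 1998. With 1 array left out, mRNA probes higher ran from 3716 to 4328 and lower from 2063 to 2452, lncRNA probes higher from 3797 to 4419 and lower from 1872 to 2380, highest in the low pool from 743 to 1179 and from 1395 to 2145, and the category difference from -0.78 to -0.72. Taking the untranslated arrays that share a label number as 1 replicate gave 4284 and 2352 mRNA and 4488 and 2103 lncRNA probes. Leaving out the total RNA arrays, chosen after seeing the data, gave 3953 and 2222 mRNA and 4108 and 2059 lncRNA probes. Of 1445 values of named probes under alternatives, 1402 kept direction and call, 31 lost the call (mostly FTH1, EEF1A1, CDO1 and ATF4), 3 gained it (COL1A1) and 9 reversed, as given above. The short against long protein comparison was not run. Dim signal over background on the untranslated arrays limits what can be read there.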
